A study of Arabidopsis thaliana with 8 samples.

Results

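The genes described here are the 10 that set where leaf hairs form in Arabidopsis thaliana: the R2R3 MYB activators GL1 and MYB23, their target GL2, and the R3 MYB repressors TRY, CPC, ETC1, ETC2, ETC3, TCL1 and TCL2. They are 10 of the 25198 genes in the expression table and were looked up by locus identifier (ETC3 stands in the table under its other name, CPL3). They were chosen by their read counts in the 4 genotypes of these same libraries, so their levels and fold changes are given as a description, with no test. Messenger RNA was sequenced from whole seedlings at day 11, roots and shoots together, in 8 libraries. There were 2 libraries for each of 4 genotypes: wild type Col, the double mutants chr11-/-chr17-/- (labelled chr11/17) and rlt1-/-rlt2-/- (labelled rlt1/2), and the single mutant fha2-/- (labelled fha2). All 3 mutants were in the Col background, and the labels name no alleles. ISWI complexes slide nucleosomes, and in plants CHR11 and CHR17 supply their ATPase, RLT1 and RLT2 are DDT-domain partners of that ATPase, and FHA2 carries a forkhead-associated domain. The series title presents a plant-specific ISWI subunit in fertility and pistil growth, and each mutant is compared here with Col.

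A leaf epidermal cell becomes a trichome when an R2R3 MYB protein, a bHLH protein and the WD40 protein TTG1 form a complex that switches on GL2, which encodes a homeodomain leucine zipper protein needed for hair outgrowth. The same complex switches on some of the R3 MYB genes. The R3 proteins are small, lack an activation domain, move into neighbouring cells and compete with the R2R3 MYB for the bHLH protein, which keeps the neighbours from becoming hairs. In the root the same logic, with WER in place of GL1, separates hair from non-hair cells, and there CPC promotes hair fate.

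The stretch by which these MYB proteins bind the bHLH partner is what lets repressor and activator compete, so its coding DNA is shown for the 9 MYB genes. It was found in the longest complete coding sequence of each gene in RefSeq TAIR10.1. The search looked for 6 fixed codons within 20, which encode in order aspartate or glutamate, leucine, arginine or lysine, leucine, leucine and arginine. Capitals mark those 6 codons.
GL1: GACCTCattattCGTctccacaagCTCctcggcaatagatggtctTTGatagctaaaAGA
MYB23: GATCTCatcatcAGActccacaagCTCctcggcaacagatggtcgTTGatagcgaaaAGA
TRY: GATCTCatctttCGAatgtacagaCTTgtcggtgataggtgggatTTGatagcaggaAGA
ETC2: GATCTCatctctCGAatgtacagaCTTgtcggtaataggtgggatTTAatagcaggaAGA
TCL1: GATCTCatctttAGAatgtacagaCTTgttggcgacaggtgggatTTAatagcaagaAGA
TCL2: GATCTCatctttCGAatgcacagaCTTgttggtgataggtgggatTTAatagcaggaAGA
CPC: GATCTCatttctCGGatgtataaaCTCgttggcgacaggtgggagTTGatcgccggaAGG
ETC1: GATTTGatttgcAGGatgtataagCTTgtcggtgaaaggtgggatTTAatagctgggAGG
ETC3: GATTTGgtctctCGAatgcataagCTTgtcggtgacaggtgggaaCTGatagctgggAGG

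The pattern was present once in each of these 9 genes and was not in the coding sequence of GL2. Among 25127 listed genes with a complete coding sequence, 36 held it, which is 0.143%. The stretch of GL1 and that of MYB23 shared 52 of 60 bases. Among TRY, ETC2, TCL1 and TCL2 every pair shared 53 to 57 bases, while CPC, ETC1 and ETC3 shared 45 to 49 with each other and 42 to 47 with those 4. The activators shared 35 to 42 bases with the repressors. The repressors were short, from 77 codons in ETC3 to 112 in ETC2, against 228 in GL1 and 219 in MYB23. Over whole coding sequences, the closest repressor pairs were ETC2 and TCL2 with 73.5% identity of the alignment, TCL1 and TCL2 with 72.4% and ETC1 and ETC3 with 70.5%. ETC2, TCL2 and TCL1 lie next to each other in this order on chromosome 2. CPC is also on chromosome 2, GL2 and ETC1 are on chromosome 1, GL1 on chromosome 3, ETC3 on chromosome 4, and MYB23 and TRY on chromosome 5. The deposited counts of the 9 MYB genes were whole numbers except for 15.99 in ETC2 and 148.01 in TCL2, both in rlt1/2 replicate 1.

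**Figure D1:**
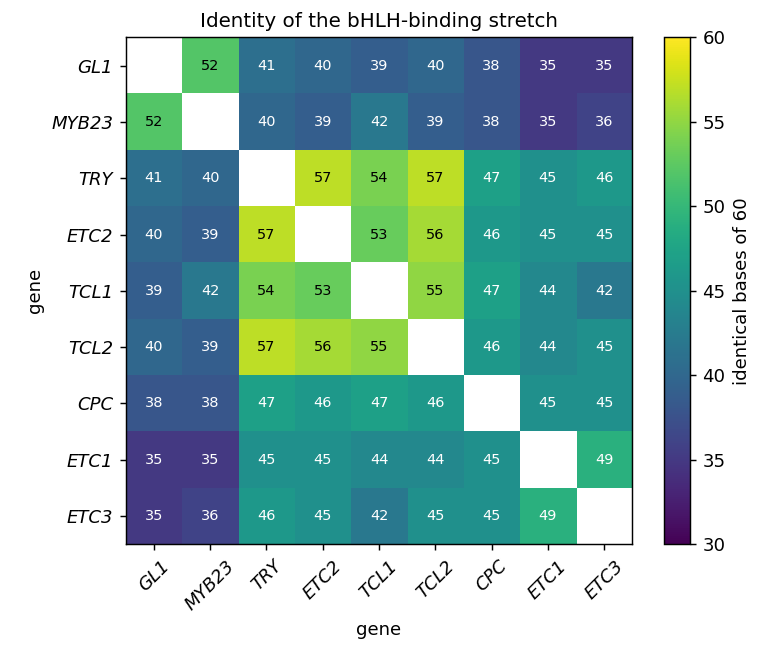
Identity of the bHLH-binding stretch between each pair of the 9 MYB genes, in identical bases of 60 (colour and printed number). TRY, ETC2, TCL1 and TCL2 form a block of 53 to 57, and no other pair of repressors exceeds the 49 of ETC1 and ETC3.

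Total expected counts (read numbers estimated per gene, not always whole) ran from 20.962 M to 22.012 M per library (M, mega). The targeted genes did not all behave as the labels imply. FHA2 had 429 and 458 counts in Col against 68.9 and 23 in fha2, and RLT2 had 514 and 640 against 50 and 51 in rlt1/2. RLT1 fell less, to 362 and 388 counts in rlt1/2 from 463 and 669. For CHR11 the chr11/17-labelled libraries held 1617 and 1640 counts against 861 and 869 in Col. For CHR17 they held 499 and 538 against 313 and 422. Scaled as described below, CHR11 was 1.53-fold of its Col level there (edgeR, adjusted p = 2.84e-05). CHR17 was 1.15-fold and was not called (edgeR, adjusted p = 0.184). Gene totals do not show whether a transcript is intact, so the genotype is given here as labelled. The 20 most abundant genes took between 7.73% and 22.5% of the counts of a library, with the lowest shares in the chr11/17-labelled libraries. Levels below are in CPM, that is counts relative to library size after TMM scaling, and fold changes are log2 values with a standard error (SE) from the edgeR fit of all 8 libraries. Scaling by total counts instead moved the median log2 fold change of all tested genes by 0.28 in chr11/17, 0.28 in rlt1/2 and 0.25 in fha2. The 3 comparisons share the same Col libraries. Seedlings are a mixture, so fewer cells of a type and less RNA per cell cannot be told apart.

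GL1 encodes the R2R3 MYB protein that starts trichome fate in leaves. It had 0.932 and 1.60 CPM in Col, 0.272 and 0.383 in the chr11/17-labelled libraries, 0.876 and 1.08 in rlt1/2, and 1.55 and 1.40 in fha2. Both chr11/17 libraries lay below all 6 others, while rlt1/2 and fha2 overlapped Col. These levels rest on few reads, namely 17 and 30 counts in Col, against 6 and 9 in the chr11/17-labelled libraries. The log2 fold change against Col was -1.93 ± 0.44 in chr11/17, which is 3.81-fold lower, -0.37 ± 0.37 in rlt1/2 and 0.22 ± 0.35 in fha2. The Col libraries differed enough in GL1 to set the sign of the small values. Without Col replicate 2 the value was 0.07 in rlt1/2 and 0.66 in fha2, and without Col replicate 1 it was -0.70 in rlt1/2 and -0.11 in fha2. In chr11/17 it was -1.49 without Col replicate 2.

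MYB23 overlaps with GL1 in function and acts in trichome branching. Its levels were 4.71 and 6.61 CPM in Col, 0.998 and 1.53 in the chr11/17-labelled libraries, 3.11 and 3.43 in rlt1/2, and 3.58 and 4.08 in fha2. The groups did not overlap and stood in the order Col, fha2, rlt1/2, chr11/17 from high to low. The log2 fold change against Col was -2.15 ± 0.26 in chr11/17, -0.79 ± 0.23 in rlt1/2 and -0.57 ± 0.23 in fha2. In fha2 it was -0.30 without Col replicate 2, and in rlt1/2 it was -0.51 with scaling by total counts.

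GL2, the target of the complex, had 20.3 and 21.2 CPM in Col, 8.03 and 8.84 in the chr11/17-labelled libraries, 17.2 and 15.4 in rlt1/2, and 15.3 and 13.8 in fha2. Every mutant library lay below both Col libraries, and the chr11/17 libraries lay below all others. Against Col the log2 fold change was -1.30 ± 0.12 in chr11/17, -0.35 ± 0.11 in rlt1/2 and -0.51 ± 0.11 in fha2. With scaling by total counts the values were -1.01, -0.06 and -0.26.

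TRY encodes the R3 repressor whose loss gives clustered trichomes. It had 2.25 and 2.03 CPM in Col, 0.272 and 0.510 in the chr11/17-labelled libraries, 1.27 and 0.997 in rlt1/2, and 1.81 and 1.80 in fha2. The groups did not overlap, with chr11/17 lowest and rlt1/2 next. Its log2 fold change was -2.42 ± 0.37 in chr11/17, 5.35-fold lower, on 6 and 12 counts. It was -0.91 ± 0.31 in rlt1/2 and -0.24 ± 0.30 in fha2, where scaling by total counts gave 0.01.

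ETC2, a repressor tied to natural differences in trichome density, stood at 2.03 and 2.83 CPM in Col, 0.272 and 0.340 in the chr11/17-labelled libraries, 0.701 and 0.564 in rlt1/2, and 1.59 and 1.84 in fha2. All 4 libraries of chr11/17 and rlt1/2 were below 1 CPM and all 4 of Col and fha2 were above it. The log2 fold change was -2.96 ± 0.38 in chr11/17, -1.93 ± 0.34 in rlt1/2 and -0.50 ± 0.29 in fha2. In fha2 it was -0.24 without Col replicate 2.

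TCL1 represses trichomes on inflorescence stems. It had 45 and 35 counts in Col, 0 and 2 in the chr11/17-labelled libraries, 16 and 10 in rlt1/2, and 10 and 8 in fha2, which is 2.47 and 1.87 CPM, 0 and 0.0850, 0.701 and 0.434, and 0.442 and 0.351 CPM. Every mutant library was below both Col libraries, and rlt1/2 and fha2 overlapped each other. The count of 0 allows a level of up to 0.136 CPM (3 counts) in that library. By counts scaled to library size, TCL1 was 49.3-fold lower in chr11/17 than in Col, with an exact 95% interval of 13.2 to 414 that covers counting error only. The log2 fold change was -1.92 ± 0.43 in rlt1/2 and -2.43 ± 0.45 in fha2. TCL1 was the repressor with the lowest value in fha2, where the other 6 lay between -0.50 and 0.51.

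TCL2, a repressor that acts with TCL1 and the others, had 12.6 and 11.8 CPM in Col, 3.54 and 3.44 in the chr11/17-labelled libraries, 6.48 and 4.51 in rlt1/2, and 10.6 and 9.30 in fha2. The groups did not overlap and kept the order seen for MYB23, TRY and ETC2. Against Col it stood at a log2 fold change of -1.81 ± 0.18 in chr11/17, -1.15 ± 0.17 in rlt1/2 and -0.29 ± 0.16 in fha2, where scaling by total counts gave -0.04. With ETC2, TCL2 and TCL1 counted as 1 feature, the values were -2.13 ± 0.17, -1.33 ± 0.15 and -0.48 ± 0.15.

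The genes on either side of this trio did not all move one way. KIS, which encodes a tubulin-folding cofactor and lies beside ETC2, had 33.8 and 31.0 CPM in Col and 77.6 and 60.3 in the chr11/17-labelled libraries. It rose by 1.09 ± 0.12 in chr11/17 (edgeR, adjusted p = 3.33e-06) and by 0.59 ± 0.12 in rlt1/2 (adjusted p = 0.00183). TPP, beside TCL1, fell by 0.60 ± 0.09 in chr11/17 (edgeR, adjusted p = 4.35e-05), and the next gene, AT2G30460, rose by 0.51 ± 0.11 (adjusted p = 0.000869). In rlt1/2 the value for TPP was -0.20 ± 0.09 (edgeR, adjusted p = 0.08), with both libraries below Col, and that for AT2G30460 was 0.01 ± 0.11 (adjusted p = 0.971). In fha2 the log2 fold changes of the 3 neighbours were -0.18, 0.11 and 0.14 (edgeR, adjusted p from 0.324 to 0.415). OFP2, on the far side of KIS, had too few reads to be tested.

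CPC, which promotes root hair fate and represses trichomes, had 2.69 and 3.04 CPM in Col, 7.21 and 6.34 in the chr11/17-labelled libraries, 3.85 and 4.68 in rlt1/2, and 2.34 and 2.33 in fha2. On this scale the libraries of chr11/17 and rlt1/2 lay above both Col libraries, and those of fha2 lay below them. With scaling by total counts the libraries of fha2 and Col overlapped. CPC had a log2 fold change of 1.24 ± 0.19 in chr11/17, 0.58 ± 0.20 in rlt1/2 and -0.30 ± 0.22 in fha2. With scaling by total counts the fha2 value was -0.04.

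ETC3 encodes the shortest of the 7 repressors and acts redundantly with CPC and TRY. It had 4.77 and 5.12 CPM in Col, 37.5 and 21.9 in the chr11/17-labelled libraries, 11.0 and 11.2 in rlt1/2, and 6.67 and 7.46 in fha2. All 6 mutant libraries lay above both Col libraries, in the order Col, fha2, rlt1/2, chr11/17. ETC3 had a log2 fold change of 2.58 ± 0.22 in chr11/17, which is 5.99-fold higher, 1.17 ± 0.24 in rlt1/2 and 0.51 ± 0.25 in fha2. The chr11/17 libraries differed from each other in ETC3, and the value there was 2.15 without replicate 1 and 2.92 without replicate 2. With scaling by total counts the fha2 value was 0.77.

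ETC1, a close relative of ETC3, had 1.10 and 1.60 CPM in Col, 2.04 and 1.45 in the chr11/17-labelled libraries, 1.53 and 1.78 in rlt1/2, and 0.971 and 1.23 in fha2. Each mutant overlapped Col. The log2 fold changes were 0.36 ± 0.33, 0.29 ± 0.33 and -0.29 ± 0.35, each within about 1 SE of 0. ETC1 overlaps the gene AT1G01390, and whether reads were counted by strand was not given in the sources used here. With the counts of both added the values were -0.78, -0.74 and -0.22. That sum holds all counts of AT1G01390 as well, so it cannot show whether reads of ETC1 were counted for the other gene. Without Col replicate 2 the fha2 value of ETC1 was 0.01.

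**Figure D2:**
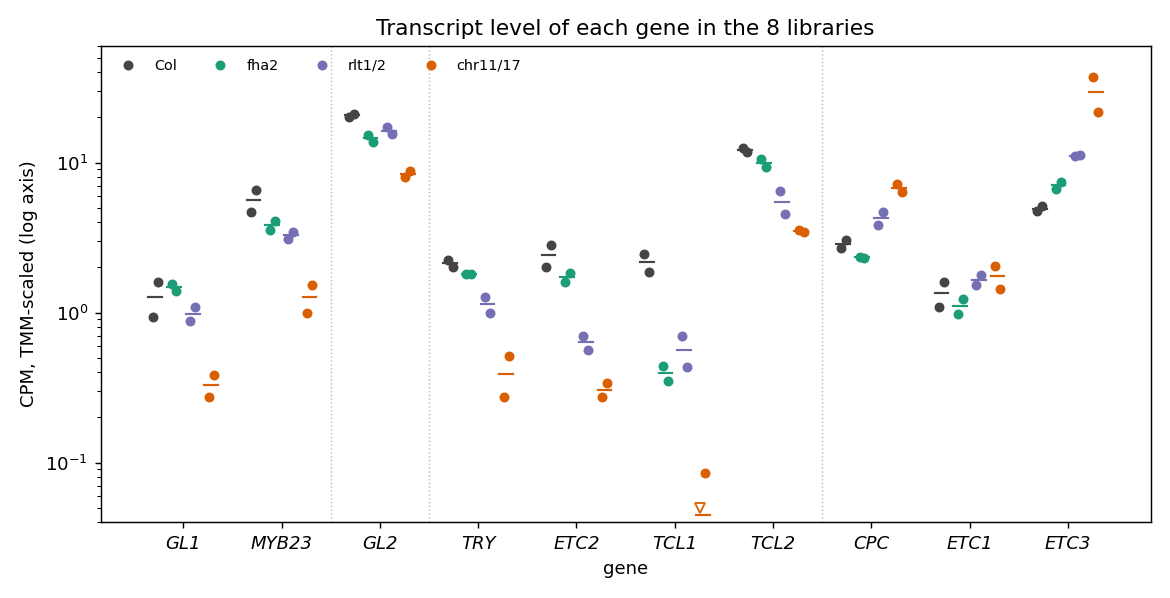
CPM of each gene in the 8 libraries on a log axis, with points for libraries and short lines for the mean of 2, and an open triangle in place of the count of 0 for TCL1 in chr11/17 replicate 1. Levels are to be compared within a gene, since CPM is not divided by length; TRY, ETC2, TCL1 and TCL2 are lowest in chr11/17, and CPC and ETC3 are highest there.

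All 10 genes passed the filter on low counts, and 14 of their 30 fold changes against Col were at least 2-fold. The median log2 fold change of the 10 was -1.87 in chr11/17, -0.58 in rlt1/2 and -0.29 in fha2, beside medians of -0.01, 0.01 and 0.01 over all 20866 genes tested. In the edgeR fit, 9 of the 10 were past the threshold in chr11/17 (2 higher, 7 lower), where 69.1% of all tested genes were. In rlt1/2 there were 8 (2 higher, 6 lower), beside 37.5% of all tested genes, and in fha2 there were 2 lower ones, GL2 and TCL1, beside 15.1%. The count in rlt1/2 was 5 without Col replicate 1, 4 without Col replicate 2 and 4 without rlt1/2 replicate 2. The count in fha2 was 1 without Col replicate 2, and without fha2 replicate 2 it was 0 in edgeR, where 3 had an unadjusted p under 0.05 (DESeq2 on all libraries gave 1). Libraries did not overlap with Col for 9 of the 10 genes in chr11/17 (82.8% of all tested genes), 8 in rlt1/2 (69.4%) and 8 in fha2 (61.3%). These counts come from the contrasts that chose the genes.

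**Figure D3:**
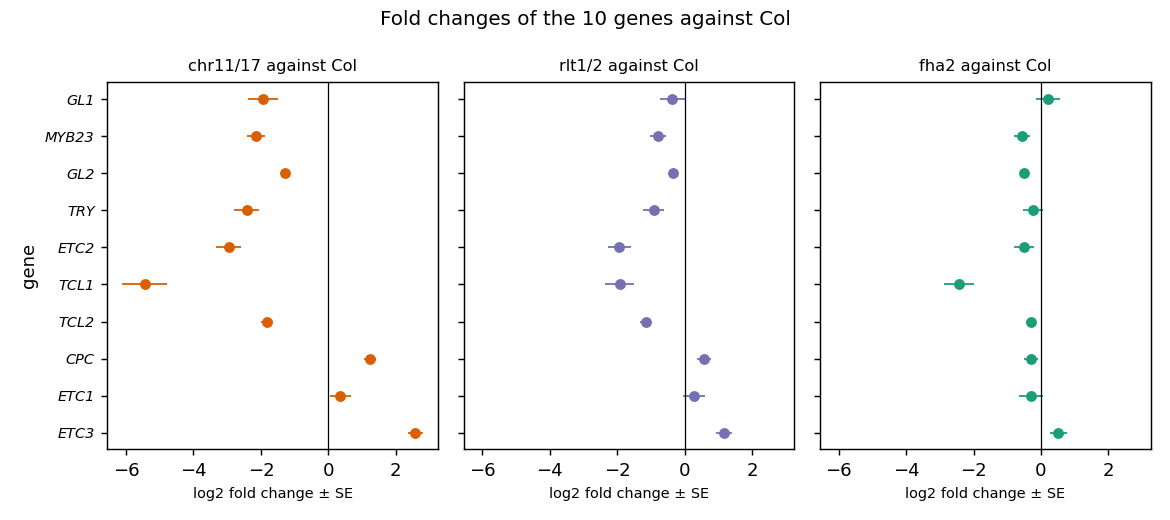
Log2 fold change of the 10 genes against Col in each mutant, with bars of ± 1 SE from the edgeR fit. TCL1 in chr11/17 rests on 2 reads and its point is a fitted value; ETC3 lies right of 0 in all 3 panels, and CPC in chr11/17 and rlt1/2 alone.

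The order Col, fha2, rlt1/2, chr11/17, with no overlap between neighbouring groups, held on the CPM scale for 5 of the 10 genes, falling for MYB23, TRY, ETC2 and TCL2 and rising for ETC3. Of all tested genes, 10.2% stood in this order or its reverse. With CPM by total counts or with the deposited FPKM (reads per length and library size), ETC3 alone kept it, beside 13.1% and 12.9% of all tested genes. No other order was counted over all tested genes, and the 10 genes were chosen by read counts of these same libraries. The count of 5 is thus a description and not a test. In the direct comparison of the chr11/17-labelled libraries with those of rlt1/2, the log2 difference was -1.56 ± 0.45 for GL1, -1.36 ± 0.27 for MYB23, -1.51 ± 0.40 for TRY, -1.03 ± 0.46 for ETC2, -0.65 ± 0.19 for TCL2 and 1.42 ± 0.20 for ETC3. Between rlt1/2 and fha2 it was -1.43 ± 0.34 for ETC2, -0.86 ± 0.17 for TCL2 and 0.87 ± 0.20 for CPC, while TCL1 had 0.51 ± 0.53.

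Levels of different genes were compared with the deposited FPKM. In Col the order from high to low was TCL2 with 15.9 ± 0.05 (SD, n = 2), ETC3 with 10.3 ± 1.07, GL2 with 6.79 ± 0.52, MYB23 with 5.10 ± 1.43, CPC with 3.33 ± 0.44, ETC2 with 3.22 ± 0.88, TCL1 with 3.05 ± 0.47, TRY with 2.08 ± 0.06, ETC1 with 1.71 ± 0.35 and GL1 with 1.19 ± 0.49. The libraries of CPC and ETC2, of ETC2 and TCL1, and of ETC1 and GL1 overlapped. In fha2 ETC3 stood first with 17.7 ± 0.74 FPKM and TCL2 second with 15.6 ± 1.39, and TCL1 was last with 0.665 ± 0.11. In rlt1/2 ETC3 reached 28.4 ± 0.34 FPKM, ahead of TCL2 with 8.76 ± 2.19. In the chr11/17-labelled libraries ETC3 had 73.7 ± 23.4 FPKM, CPC 9.53 ± 0.47 and TCL2 5.57 ± 0.13, and TRY, ETC2, GL1 and TCL1 were below 1. By mean FPKM GL1 was the lowest of the 10 genes in Col, and TCL1 the lowest in each mutant. In rlt1/2, however, the libraries of GL1, ETC2 and TCL1 overlapped, and in replicate 1 both GL1 (0.99 FPKM) and ETC2 (1.12) stood below TCL1.

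The make-up of the repressor transcripts shifted between genotypes. TRY, ETC2, TCL1 and TCL2, grouped after their values were seen, made up 63.1% and 59.5% of the summed FPKM of the 7 repressors in the Col libraries, 50.1% and 46.5% in fha2, 28.0% and 20.99% in rlt1/2, and 5.66% and 9.18% in those labelled chr11/17. The ETC3 share was 25.1% and 26.9% in Col, 39.4% and 42.0% in fha2, 55.9% and 59.8% in rlt1/2, and 82.3% and 75.1% in chr11/17. The 7 together summed to 38.1 and 41.1 FPKM in Col, 43.7 and 43.5 in fha2, 50.4 and 47.9 in rlt1/2, and 109.7 and 76.1 in the chr11/17-labelled libraries. Every mutant library had a higher sum than both Col libraries on this scale, but not after division by the TMM factors, a scaling added after the data were seen. Col libraries then stood at 45.3 and 46.0, fha2 at 42.4 and 41.8, rlt1/2 at 47.7 and 45.2, and chr11/17 at 107 and 70.1. On that scale the chr11/17 libraries alone lay above Col, those of rlt1/2 overlapped Col and those of fha2 lay below it, and on the CPM scale, where the 7 summed to 27.9 and 28.3 in Col, those of fha2 (24.5 and 24.3) and of rlt1/2 (25.5 and 24.2) both lay below. The sum of TRY, ETC2, TCL1 and TCL2 alone was 24.0 and 24.5 FPKM in Col, 21.9 and 20.2 in fha2, 14.1 and 10.05 in rlt1/2, and 6.21 and 6.99 in chr11/17, so that every mutant library lay below Col, as it also did after division by the TMM factors (28.6 and 27.3 in Col, at most 21.3 in a mutant). The deposited FPKM carry no TMM scaling, which does not touch shares within a library.

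**Figure D4:**
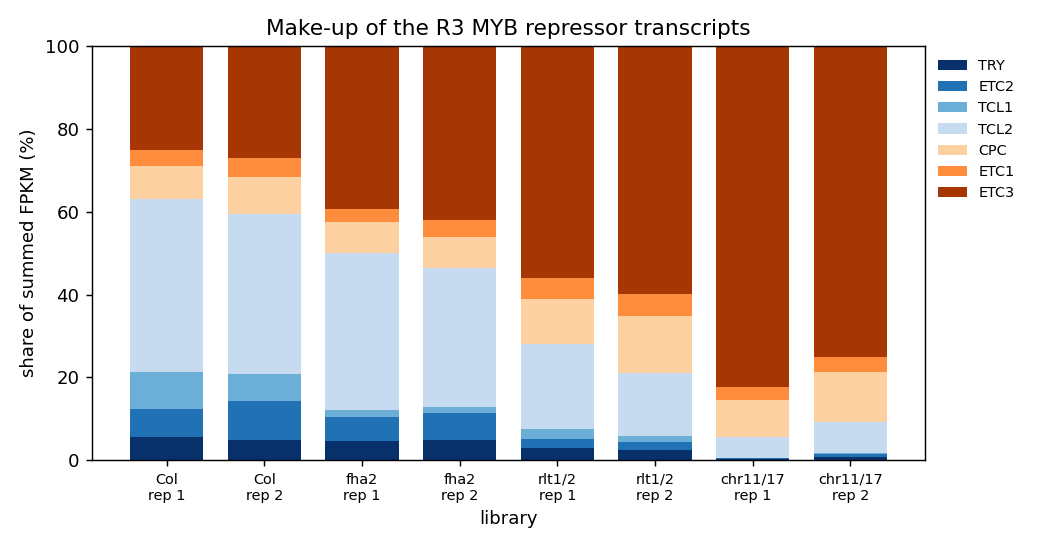
Share of each of the 7 R3 MYB repressors in their summed FPKM, in percent, for each library. TCL2 is the largest part in Col (41.9% and 38.6%) and ETC3 in the chr11/17-labelled libraries (82.3% and 75.1%).

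For each of the 10 genes, the tested genes with the most similar profile were those with the smallest root mean square difference of log2 CPM over the 8 libraries after centring each gene. The 2 nearest were YSL4 and AT4G20320 for GL1 (0.13 and 0.14), FAD3 and PFA-DSP5 for TRY (0.07 and 0.14), PAI2 and AT2G15760 for ETC3 (0.10 and 0.17), AT5G35970 and ERF8 for TCL2 (0.11 and 0.13), and AT5G27220 and CYP81F2 for ETC2 (0.13 and 0.16). None of these is among the 10. The same held for the nearest genes of MYB23, GL2, CPC, ETC1 and TCL1, which are not named here. MYB23 lay at 0.30 from GL1, with 615 tested genes nearer to GL1, and TRY lay at 0.37, with 1359 nearer. CPC and ETC3 were far from GL1, at 1.31 and 1.69, with 18262 and 19821 genes nearer. The 4 genotypes dominate these profiles, so the 8 libraries are not independent points.

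Other genes of trichome and root hair patterning came from a list of 38, of which 36 had enough reads to be tested. In the chr11/17-labelled libraries, 7 of the 36 rose and 21 fell (edgeR, adjusted p under 0.05), beside 34.8% and 34.4% of all tested genes, and the median log2 fold change was -0.53. In rlt1/2, 1 rose and 8 fell, beside 18.7% each way. In fha2, 4 rose and 4 fell, beside 6.33% and 8.76%, but the total of 8 was 4 without Col replicate 1, 2 without Col replicate 2, 4 without fha2 replicate 1 and 1 without fha2 replicate 2. With scaling by total counts chr11/17 had 9 higher and 15 lower, rlt1/2 had 10 higher and 4 lower, and fha2 had 11 higher and 2 lower. Among the called genes described next, DESeq2 did not call EGL3, RHD6 and STI in chr11/17, SPL10 and TTG1 in rlt1/2, or GIS, SPL9 and FZR2 in fha2, and total counts did not call RHD6, ZFP8, AN, STI, KAK and ZWI in chr11/17, SPL10, TTG1 and TBR in rlt1/2, or MYBL2 and FZR2 in fha2.

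The partners of the MYB proteins differed among themselves. TT8, a bHLH protein best known for seed coat pigment, had 1.48 and 2.19 CPM in Col, 13.5 and 13.1 in the chr11/17-labelled libraries, 7.58 and 8.54 in rlt1/2, and 5.12 and 5.83 in fha2. It rose in all 3 mutants, by 2.85 ± 0.19, 2.13 ± 0.19 and 1.57 ± 0.20 (edgeR, adjusted p = 3.8e-08, 6.22e-06 and 0.000858). TTG1, the WD40 protein of the complex, had 17.4 and 16.4 CPM in Col and 9.30 and 9.65 in the chr11/17-labelled libraries, where it fell by 0.83 ± 0.14 (edgeR, adjusted p = 0.000131). In rlt1/2 it had 11.2 and 14.7 CPM and fell by 0.38 ± 0.13 (edgeR, adjusted p = 0.0383), but the adjusted p was 0.155 without Col replicate 1, 0.0775 without Col replicate 2, 0.325 without rlt1/2 replicate 1, 0.0565 without fha2 replicate 2 and 0.604 with scaling by total counts. MYC1, a bHLH partner, fell by 1.62 ± 0.24 in chr11/17 (edgeR, adjusted p = 5e-05), from 6.14 and 7.57 CPM to 1.59 and 2.85.

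GL3 and EGL3 are the main bHLH partners of GL1. GL3 had 0.442 to 0.850 CPM over all libraries, with log2 fold changes of 0.19 ± 0.46, -0.02 ± 0.47 and -0.23 ± 0.49 and no call in edgeR. EGL3 had 1.81 and 2.51 CPM in Col, 3.45 and 3.70 in the chr11/17-labelled libraries and 4.55 and 3.82 in fha2. It rose by 0.73 ± 0.27 in chr11/17 and by 0.95 ± 0.27 in fha2 (edgeR, adjusted p = 0.0311 and 0.0334). In edgeR the chr11/17 value had an adjusted p of 0.196 with Col replicate 1 left out, 0.0519 with chr11/17 replicate 1 left out and 0.0907 with chr11/17 replicate 2 left out. The fha2 value had an adjusted p between 0.062 and 0.176 when any one Col or fha2 library was left out.

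Among related MYB genes, MYBL2, an R3-type repressor of flavonoid genes, had 106 and 112 CPM in Col, 29.8 and 28.3 in the chr11/17-labelled libraries, 27.3 and 29.0 in rlt1/2, and 85.1 and 77.4 in fha2. It fell by 1.91 ± 0.09 in chr11/17 and by 1.95 ± 0.09 in rlt1/2 (edgeR, adjusted p = 2.98e-09 and 7.38e-08). In fha2 it fell by 0.42 ± 0.09 (edgeR, adjusted p = 0.00877), with adjusted p of 0.06 without Col replicate 2, 0.123 without fha2 replicate 2 and 0.181 with scaling by total counts. WER, the root counterpart of GL1, had log2 fold changes of -0.84 ± 0.43, -0.08 ± 0.40 and -0.22 ± 0.40, and MYB82 of -0.29 ± 0.68, -0.71 ± 0.72 and -0.80 ± 0.73, none past the threshold in edgeR. MYB5 had too few reads to be tested.

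The zinc finger genes act upstream of GL1 in the gibberellin and cytokinin response of trichomes. GIS had 5.04 and 4.80 CPM in Col, 2.45 and 2.81 in the chr11/17-labelled libraries, 2.72 and 2.52 in rlt1/2, and 6.80 and 8.12 in fha2. It fell by 0.90 ± 0.19 in chr11/17 and by 0.91 ± 0.19 in rlt1/2 (edgeR, adjusted p = 0.00109 and 0.0027). In fha2 it rose by 0.60 ± 0.17 (edgeR, adjusted p = 0.0361), with adjusted p of 0.0959 and 0.141 without Col replicates 1 and 2, 0.074 and 0.273 without fha2 replicates 1 and 2, and 0.0504 without rlt1/2 replicate 2. GIS3 rose by 1.84 ± 0.40 in chr11/17 (edgeR, adjusted p = 0.00116), from 0.987 and 0.373 CPM to 2.86 and 2.04. ZFP5 rose by 0.73 ± 0.24 there (adjusted p = 0.0153, edgeR), and the adjusted p was 0.0923 without Col replicate 1 and 0.0791 without chr11/17 replicate 1. ZFP8 fell by 0.30 ± 0.09 (edgeR, adjusted p = 0.0117), and the adjusted p was 0.0975 without Col replicate 1, 0.0828 without chr11/17 replicate 2 and 0.842 with scaling by total counts.

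Genes of plant age and leaf polarity set where trichomes appear, and SPL9 is known to activate TCL1 and TRY. SPL9 had 5.76 and 5.71 CPM in Col, 2.72 and 2.72 in the chr11/17-labelled libraries, 5.91 and 6.81 in rlt1/2, and 7.73 and 8.38 in fha2. It fell by 1.07 ± 0.17 in chr11/17 (edgeR, adjusted p = 0.000112). Its part in the levels of TCL1 and TRY was not tested. In fha2 SPL9 rose by 0.49 ± 0.15 (edgeR, adjusted p = 0.0474). It was not called there by DESeq2 (adjusted p = 0.184), nor by edgeR with RLE factors (adjusted p = 0.0543) or a replicate block (adjusted p = 0.0556). Its log2 fold change in fha2 was 0.54 without fha2 replicate 1 and 0.43 without fha2 replicate 2. SPL3 and SPL10 belong to the same family of age-dependent factors. SPL3 fell by 2.51 ± 0.22 in chr11/17 and by 0.88 ± 0.19 in rlt1/2 (edgeR, adjusted p = 5.06e-07 and 0.00283), from 7.56 and 9.01 CPM in Col to 1.59 and 1.32, and to 5.21 and 3.82. SPL10 fell by 1.30 ± 0.15 in chr11/17 (edgeR, adjusted p = 7.61e-06), and its value in rlt1/2 was -0.53 ± 0.14, with an adjusted p (edgeR) of 0.0737, 0.0543 or 0.0576 when Col replicate 2, rlt1/2 replicate 1 or rlt1/2 replicate 2 was left out. KAN1, a polarity gene that overlaps another listed gene, fell by 0.82 ± 0.15 and by 0.71 ± 0.15 in these mutants (edgeR, adjusted p = 0.000349 and 0.00273).

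Of the genes that act in the growing trichome, 2 of 11 rose and 7 fell in chr11/17 (edgeR), beside 34.8% and 34.4% of all tested genes. When total counts set the scale, AN, STI, KAK and ZWI were not among those that fell. In rlt1/2 1 of the 11 fell, beside 18.7%, and in fha2 2 fell, SIM and FZR2, beside 8.76%. TBR, needed for the trichome wall, had 95.3 and 89.1 CPM in Col, 44.9 and 46.9 in the chr11/17-labelled libraries and 67.8 and 71.2 in rlt1/2, and fell by 1.01 ± 0.08 and by 0.41 ± 0.08 (edgeR, adjusted p = 3.61e-07 and 0.00213). The rlt1/2 call was lost with scaling by total counts (adjusted p = 0.278). TTG2, a WRKY factor switched on by the same complex as GL2, went the other way in chr11/17 and rose by 1.38 ± 0.15 (edgeR, adjusted p = 4.51e-06), from 5.76 and 6.93 CPM to 16.8 and 16.2. MYB106, a repressor of branching, fell by 1.32 ± 0.20 (edgeR, adjusted p = 6.24e-05). FZR2, which promotes endoreduplication, rose by 0.79 ± 0.10 in chr11/17 (edgeR, adjusted p = 1.38e-05). In fha2 it fell by 0.34 ± 0.10 (edgeR, adjusted p = 0.0452), and without any one of the Col or fha2 libraries the adjusted p was between 0.1 and 0.207. SIM, an inhibitor of cyclin-dependent kinases, had 42.9 and 44.7 CPM in Col and 32.6 and 25.6 in fha2, and fell by 0.59 ± 0.12 there (edgeR, adjusted p = 0.00985). The adjusted p of SIM was 0.06 without Col replicate 2 and 0.126 without fha2 replicate 2.

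Of the 6 genes of root hair patterning other than CPC and WER, 4 fell in chr11/17 (edgeR), beside 34.4% of all tested genes. JKD, which acts in the cortex to position hairs, had 22.6 and 24.8 CPM in Col and 7.76 and 8.25 in the chr11/17-labelled libraries, and fell by 1.57 ± 0.11 (edgeR, adjusted p = 7.87e-08). SCM, the receptor that reads cell position, fell by 0.77 ± 0.14 (edgeR, adjusted p = 0.000339), and RSL1, a bHLH factor needed for root hairs, by 2.42 ± 0.58 (adjusted p = 0.00241) on levels under 1 CPM. RHD6, a close relative of RSL1, fell by 0.79 ± 0.33 (edgeR, adjusted p = 0.0469), but the adjusted p was 0.145 and 0.084 without Col replicates 1 and 2, 0.242 without chr11/17 replicate 1, and 0.0564 and 0.0617 without fha2 replicates 1 and 2. In rlt1/2 the log2 fold changes of the 6 ranged from -0.20 to 0.65. In fha2 they ranged from -0.94 to -0.05, and 1 gene fell, beside 8.76% of all tested genes. That gene was LRL3, a bHLH factor of root hair growth, which averaged 14.1 ± 1.23 CPM in Col and 7.35 ± 0.97 in fha2 (SD over 2 libraries). It fell by 0.94 ± 0.17 (edgeR, adjusted p = 0.00474, and 0.0698 without fha2 replicate 2).

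**Figure D5:**
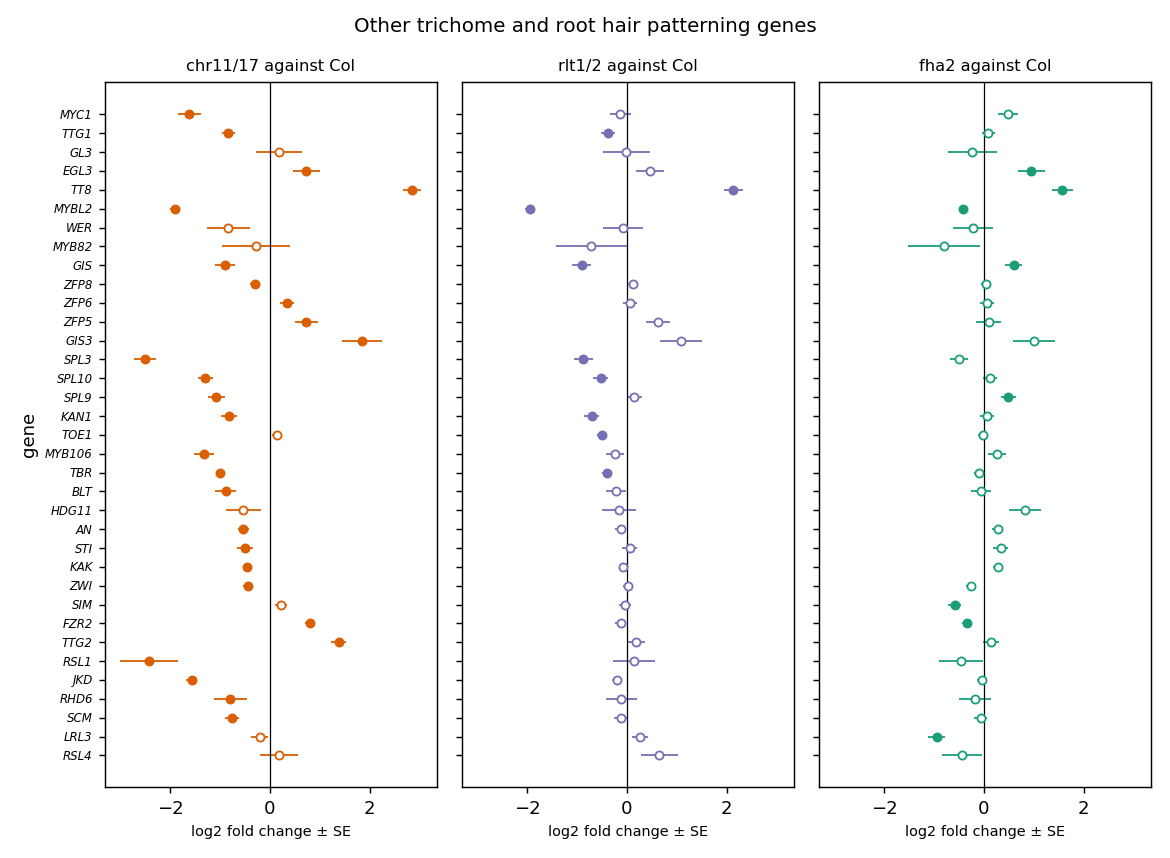
Log2 fold change against Col with ± 1 SE for 35 tested genes of trichome and root hair patterning other than the 10, filled where edgeR gave an adjusted p under 0.05; SPL15, with 0 counts in both libraries labelled chr11/17, is left out. In chr11/17 TT8 is farthest to the right, and SPL3 and RSL1 are farthest to the left.

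Marker genes of other cell types moved with the genotypes too, and their part in the levels of the 10 genes was not tested. Summed CPM of the 5 shoot epidermis markers was 508 and 519 in Col, 298 and 343 in the chr11/17-labelled libraries, 434 and 534 in rlt1/2, and 611 and 595 in fha2. All 5 fell in chr11/17 (edgeR; 3 with scaling by total counts), beside 34.4% of all tested genes, among them PDF2 by 1.36 ± 0.09 (adjusted p = 6.31e-08) and ATML1 by 1.15 ± 0.09 (adjusted p = 2.91e-07). In rlt1/2 3 of the 5 fell, beside 18.7%, but 2 without Col replicate 2 or rlt1/2 replicate 1, and with total counts 1 rose and 1 fell. In fha2 2 rose, beside 6.33%, and with total counts 5 did, but DESeq2 called neither PDF2 nor ATML1, the calls were lost in edgeR without any one Col or fha2 library, and 1 gene was called without either rlt1/2 library. Of 6 stomatal lineage markers 4 fell in chr11/17, with sums of 24.2 and 22.5 CPM there, beside 50.7 and 55.0 in Col, 41.0 and 51.5 in rlt1/2 and 50.8 and 50.7 in fha2. Of 5 root markers 3 fell in chr11/17, with sums of 23.1 and 27.0 CPM there, beside 38.8 and 38.7 in Col, 31.5 and 36.1 in rlt1/2 and 45.3 and 42.6 in fha2. Of 5 root hair cell markers 3 fell in chr11/17, with sums of 101.5 and 75.6 CPM there, beside 165 and 109.5 in Col, 212 and 223 in rlt1/2 and 109.8 and 114 in fha2. These stomatal, root and root hair cell counts in chr11/17 stand beside 34.4% of all tested genes called lower there. Of the stomatal and root markers 1 each rose in rlt1/2, 1 of each fell and 1 root hair cell marker rose. Of all tested genes, 18.7% were called there each way. More root hair cell markers rose with some single libraries left out, and 5 did with total counts. DESeq2 called neither the root rise nor the stomatal rise. The root rise was lost without any one Col or rlt1/2 library, the stomatal rise without Col replicate 1 or rlt1/2 replicate 2, and the root fall without rlt1/2 replicate 1 or with total counts. In fha2 1 root hair cell marker fell, beside 8.76% of all tested genes. That call was lost without Col replicate 1, either fha2 library or with total counts. The 5 flower markers summed to 307 and 242 CPM in the chr11/17-labelled libraries, beside 4.77 and 7.25 in Col, 138 and 143 in rlt1/2 and 9.94 and 20.3 in fha2. SEP3 alone had 266 and 200 CPM of the chr11/17 sums and AP3 had 39.8 and 41.0. AG went the other way, from 5 and 3 counts in wild type to 0 and 1 with the chr11/17 label, 9.85-fold lower by counts scaled to library size, with an exact 95% interval of 1.32 to 437 that covers counting error only. For PI the counts were 6 and 5 in wild type, against 5 and 9. SEP3 and AP3 rose in chr11/17 by 5.50 ± 0.31 and by 6.94 ± 0.22 (edgeR, adjusted p = 1.05e-08 and 2.01e-10). AP1, with 15 and 3 counts in chr11/17, was called there in edgeR (adjusted p = 0.0426). On the same libraries DESeq2 (adjusted p = 0.0711), limma-voom (adjusted p = 0.0631) and edgeR with no filter on low counts (adjusted p = 0.0544) did not call AP1. Its log2 fold change was 2.75 ± 1.11, and from 1.16 (without chr11/17 replicate 1) to 6.16 (without Col replicate 1). The AP1 call was lost without Col replicate 2, chr11/17 replicate 1 or any one rlt1/2 or fha2 library. Without Col replicate 2 the count was 3 for stomatal and 2 for root markers, without chr11/17 replicate 2 it was 3 for stomatal markers, and without Col replicate 1 it was 2 for root hair cell markers. Of the 26 markers AP1, AG and PLT2 had a library with 0 counts, and PI and AG had too few reads to be tested.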

How the data were processed

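Expected counts per gene, which need not be whole, were deposited by the authors for 8 mRNA libraries, together with FPKM values (a unit recognised from the values, since the header does not name it) and, per the file headers, a table of the authors' q-values, p-values and log2 fold changes. The submitters' processing notes name Bowtie2, RSEM, DESeq2 and TAIR10, with no role or version. The deposited FPKM served for levels between genes, and the authors' comparisons were not used for any value in the text.

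Samples were grouped by their labels. Whether a genotype's libraries came from separate cultures is not in the labels, so p-values reflect the scatter of these libraries only, perhaps a technical one. Replicates of each genotype were further apart than sampling noise allows (chi-square over degrees of freedom 4.30 to 12.5). Expected counts were rounded, and filterByExpr by genotype (minimum count 10) left 20866 of 25198 genes, scaled with TMM. All 8 libraries were fitted in edgeR 4.0.16 (R 4.3.3) by quasi-likelihood, genotype being the single term, with Benjamini-Hochberg adjustment over all tested genes and a threshold of 0.05. Alternatives were RLE factors, total counts, no filter, a floor of 1 CPM in 2 libraries, limma-voom (limma 3.58.1), DESeq2 1.42.0, only the genotypes compared, a replicate block, leaving out each library, the tandem genes ETC2, TCL2 and TCL1 added together, and, chosen after seeing the data, the overlapping gene added to ETC1, list genes with an overlap left out, a crossed replicate block, and FPKM divided by the TMM factors. The scripts were tested on simulated data.

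The 10 genes and the lists were chosen with earlier results of these data known. The text names all 10, the partners and related MYB genes of the list of 38, and from each other role up to 4 genes called in chr11/17 with the smallest adjusted p and any gene called in opposite directions in 2 mutants; the neighbours of the tandem genes, the markers named, SIM, LRL3, AN, STI, KAK and ZWI were picked after their values were seen. Gene IDs, chromosomes and coding sequences come from RefSeq TAIR10.1, where 25198 of 25198 IDs matched; since the build named in the notes differs, no coordinates are given. Dates stood in place of 22 symbols, which were taken from the annotation. Of all listed genes, 6402 (25.4%) overlap another. A result that needs a withheld item is not reported here.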

Additional observations from a re-analysis of the deposited data

Results flagged for a closer look

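On the CPM scale CPC lay on opposite sides of Col in the mutants. Its log2 fold change against Col was 1.24 in chr11/17, 0.58 in rlt1/2 and -0.30 ± 0.22 in fha2. On that scale every library of a mutant lay on the same side of both Col libraries. In fha2, 61.3% of all tested genes did not overlap Col. That difference was not tested, because CPC was chosen on these values. With scaling by total counts the fha2 value was -0.04, and the fha2 libraries overlapped Col. They also overlapped in the deposited FPKM, with 3.22 and 3.23 in fha2 beside 3.02 and 3.64 in Col.

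Among the other patterning genes, 3 were called in opposite directions in 2 mutants. SPL9 had -1.07 in chr11/17 and 0.49 in fha2, and the direct comparison of chr11/17 with fha2 gave -1.56. FZR2 had 0.79 in chr11/17 and -0.34 in fha2, with a direct difference of 1.13. GIS had -0.90 in chr11/17, -0.91 in rlt1/2 and 0.60 in fha2, with direct differences from fha2 of -1.50 and -1.51. These 3 genes were picked for opposite calls against the same Col libraries, so no test is given for their direct differences. For all 3 genes the fha2 call against Col was lost without some single libraries, while their libraries in chr11/17 and fha2 did not overlap.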

How the results depend on the processing

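With scaling by total counts, the number of genes called in fha2 was 6724 (6059 higher, 665 lower) in place of 3148 (1320 higher, 1828 lower), that in chr11/17 split into 9243 higher and 5227 lower and that in rlt1/2 into 8108 and 1849. Of the patterning genes, total counts gave 14 in rlt1/2 and 13 in fha2, and DESeq2 gave 5 in fha2. Of the 10 genes, 5 were past the threshold in rlt1/2 with total counts and 5 with DESeq2, and 1 in fha2 with DESeq2. Leaving out any one of the 8 libraries gave 444 to 4050 genes in fha2, 1 to 10 patterning genes in fha2, 4 to 8 of the 10 genes in rlt1/2 and 0 to 3 in fha2. The split of patterning genes in rlt1/2 turned from 1 higher and 8 lower to 10 higher and 4 lower with total counts, and 13 to 15 of the 30 fold changes of the 10 genes were at least 2-fold under the alternatives that keep the 10 as separate genes in all 3 comparisons; the cause of the lost calls was not tested. Without list genes that overlap another gene, 24, 8 and 7 patterning genes were called.

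The labels give the genotypes the same replicate numbers, but libraries with the same number did not deviate together (correlation -0.110, -0.0745 and -0.0314 across genes for chr11/17, rlt1/2 and fha2 with Col). With 2 libraries per genotype this cannot show whether the numbers mark pairs. With the replicate block, 14293, 7653 and 3045 genes were called, and 28, 10 and 6 patterning genes. In a fit of chr11/17 and Col alone, a crossed replicate block called 13973 genes and the block as labelled 13050. Depth limits GL1, TRY, ETC1, ETC2 and TCL1 most, with 0 to 53 counts per library and SE from 0.29 to 0.66 on the log2 scale.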
